A study of Caenorhabditis elegans with 4 samples.

Results

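The middle 50% of chromosome V of Caenorhabditis elegans, from base 5231038 to base 15693112 on the WS220 build, held 1304 of the 14199 HDA-1 peaks that the authors listed for the series (9.18%). Members were peaks of V whose midpoint fell between these bounds. The rule used no score, width or replicate support, but the bounds were set from the largest peak end on V. The same bounds applied to the replicates gave 1159 of 11762 peaks in replicate 1 and 855 of 9901 in replicate 2. The centre spans 10.5 Mb and its whole-series peaks cover 458 kb, or 4.38% of it.

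HDA-1, a worm histone deacetylase of class I, takes acetyl groups off histone tails and acts in corepressor complexes such as NuRD and SIN3, which other proteins bring to DNA. It is known for roles in embryonic and vulval development. In this species the autosome centres recombine little and are rich in conserved genes, while the arms hold more repeats. Chromosome V is known for its many chemoreceptor genes.

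Sites were mapped by chromatin immunoprecipitation and sequencing (ChIP-seq) in 2 HDA-1 libraries, and 2 input libraries of the same worms were not analysed here. All worms were wild-type N2, the laboratory reference strain, collected as L3 larvae at 20 °C from a population of males and hermaphrodites together. No other genotype, stage or treatment was compared. Chromatin came from whole larvae of many animals, so a peak cannot be assigned to a tissue, and the labels do not say whether the replicates were separate cultures. Both EGS, which links proteins to each other, and formaldehyde were used as crosslinkers, so HDA-1 may be held at a site through other proteins.

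The deposited values are the start, the end and a score for each peak, called with MACS. What the score measures is not stated. It is the authors' own value, and it ranks peaks within a list only. Read counts are not part of the lists, and the depth behind a peak is unknown. Intervals below reflect counting error alone, with each peak taken as independent. Peaks stand in groups, so every p-value below is too small to that extent. All 4 centres come from the same 2 libraries, so the tests compare places in the genome and say nothing of the spread between cultures.

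At the left bound the nearest whole-series peak outside lay at 5226619 to 5226776 (score 5.79), and the first inside at 5233808 to 5233976 (score 6.32). At the right bound the last inside lay at 15664008 to 15664358 (score 14.89), and the next outside at 15737538 to 15737717 (score 3.61). No peak thus straddled a bound in that list.

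HDA-1 peaks were sparser in the centre of V than in the centres of II and III, while no difference from the centre of IV was detected. The centre of V had 125 peaks per Mb in the whole-series list, 111 in replicate 1 and 81.7 in replicate 2. The centre of IV had 126, 112 and 84.9. The centre of II had 158, 145 and 104, and that of III had 176, 163 and 117. The order V, IV, II, III from sparse to dense was the same in each list, with V and IV close together.

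The ratio of V to II was 0.79 in the whole-series list (95% interval 0.73 to 0.85), and an exact two-sided binomial test against the share of the length gave an adjusted p of 5.25e-09 over 3 comparisons. The ratio to III was 0.71 (interval 0.65 to 0.76, adjusted p = 1.26e-17 by the same exact test). The ratio to IV was 0.99 (interval 0.91 to 1.07, adjusted p = 0.82, exact test). That interval covers counting error alone, with peaks taken as independent, so it does not exclude a difference of 10% between V and IV. With the third of each chromosome in the middle as centre, the log2 ratio to IV turned to 0.12 (adjusted p = 0.099, exact test). The replicates gave 0.77 and 0.79 against II, 0.68 and 0.70 against III, and 0.99 and 0.96 against IV.

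**Figure D1:**
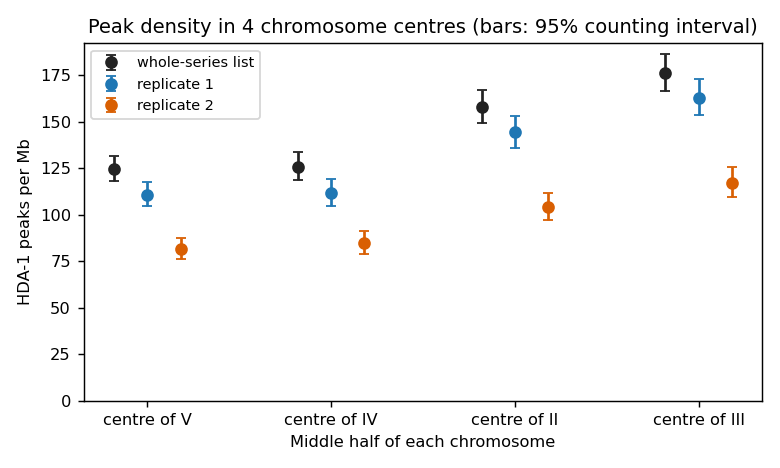
HDA-1 peaks per Mb (vertical axis) in the middle 50% of chromosomes V, IV, II and III (horizontal axis), for the whole-series list and each replicate list, with 95% counting intervals as bars. V and IV sit side by side at 125 and 126 peaks per Mb in the whole-series list, below II at 158 and III at 176, and replicate 2 lies lowest at each centre.

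Replicate 2 had fewer peaks than replicate 1 at every centre compared. The ratio of replicate 1 to replicate 2 peaks was 1.36 in the centre of V, and it was 1.39 in II, 1.39 in III and 1.32 in IV. Over the whole lists it was 1.19. The centre held 58.5% of all whole-series peaks on V, 64.7% of those of replicate 1 and 53.4% of those of replicate 2.

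The members were spread unevenly along the centre, with long stretches that held no HDA-1 peak. Empty stretches of at least 30 kb numbered 83 and took up 3.97 Mb, or 37.9% of the centre of V. Their median length was 39.5 kb, 28 reached 50 kb and 3 reached 100 kb. In the replicate lists such stretches took up 44.4% (replicate 1, 94 stretches) and 53.2% (replicate 2, 108 stretches). The list with the fewest peaks thus had the most empty sequence.

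Of the 83 stretches, 54 were empty in both replicate lists too. Replicate 1 had peaks in 19 of them and replicate 2 in 12, with 2 stretches in common. The 24 peaks of replicate 1 scored 4.87 at the median, and the 14 peaks of replicate 2 scored 4.61. Over all members of the same lists the medians were 8.77 and 9.12. Peaks of the V centre that the whole-series list lacked scored 4.0 (replicate 1) and 4.65 (replicate 2) at the median. The stretches were defined by the lack of a whole-series peak, so low scores within them are no separate result.

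The longest empty stretch ran from 7248126 to 7432475, which is 184 kb. The next lay at 8669051 to 8773871 (105 kb) and 8975472 to 9075811 (100.3 kb). The remaining 2 of the 5 longest lay at 7587960 to 7681473 (93.5 kb) and 7466053 to 7548587 (82.5 kb). None of these 5 held a peak in any of the 3 lists. The longest had nearly the same bounds in replicate 1, at 7248039 to 7432766, and reached further left in replicate 2, at 7231088 to 7432528.

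Of those 5 stretches 3 are neighbours, and with 1 more of over 30 kb they form a tract of 472 kb from 7248126 to 7720609 that was picked out after the values were seen. It held 13 whole-series peaks in 3 small groups, 10 replicate 1 peaks and 8 replicate 2 peaks, with 395 kb empty. That is 27.5 peaks per Mb, against 125 in the whole centre. The group of 7 peaks at 7432476 to 7466052 had 2 found in both replicates and a best score of 51.71. The group of 4 at 7548588 to 7587959 had 3 found in both and a best score of 50.50. Strong peaks in both replicates therefore stood between the emptiest stretches of the centre.

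**Figure D2:**
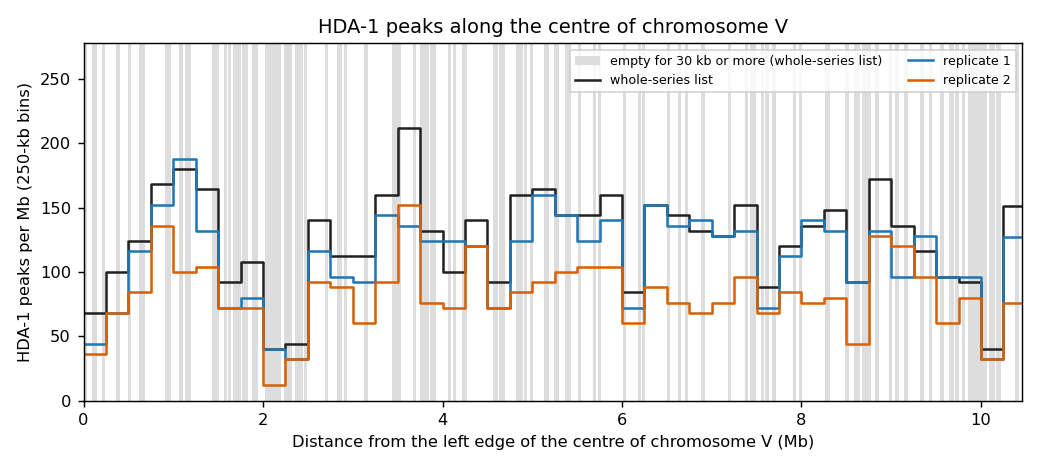
HDA-1 peaks per Mb in bins of 250 kb (vertical axis) against the distance from the left edge of the V centre in Mb (horizontal axis), for the whole-series list and each replicate, with whole-series empty stretches of at least 30 kb shaded. All 3 lists drop together just past 2 Mb from the edge, where the 184 kb empty stretch lies, and again near 10 Mb.

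In bins of 1 Mb that lay wholly in the centre, the whole-series count ran from 79 to 154 with a median of 131. The bin at 7000001 to 8000000 had the fewest, 79 peaks (64 in replicate 1 and 49 in replicate 2), and 56.6% of the bin in long empty stretches. The most were in the bin just before it, at 6000001 to 7000000, with 154 peaks (138 and 106) and 38.7% of the bin in long empty stretches. The extremes of the centre are thus next to each other, and both replicates place the lowest and the highest count in the same bins.

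Empty stretches were longer in the centre of V than in those of II and III. Among all stretches between neighbouring peaks and at the bounds, 83 of 1305 (6.36%) reached 30 kb on V. Over all 6 chromosomes the share was 4.31%. It was 3.31% in the centre of II (Fisher's exact test, two-sided, odds ratio 1.98, interval 1.33 to 2.99, adjusted p = 0.000611). It was 2.22% in that of III (odds ratio 2.99, interval 1.90 to 4.84, adjusted p = 7.45e-07, same exact test). In the centre of IV it was 5.26% (odds ratio 1.22, interval 0.85 to 1.76, adjusted p = 0.26, same exact test). A sparser region has longer stretches by itself, so these shares are not independent of the densities above.

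Between V and IV, the empty stretches that were longest set V apart in the description of the whole-series list, without passing a test. Stretches of at least 30 kb took up 37.9% of the centre on V and 29% on IV, and those of at least 50 kb took up 18.6% and 9.21%. There were 28 of the latter on V, 12 on IV, 8 on II and 5 on III. The longest was 184 kb on V, 98.3 kb on IV, 75.4 kb on II and 72.9 kb on III. In the replicates the longest differed less, with 184728 and 201441 bp on V and 144585 and 153340 bp on IV. Stretches of at least 50 kb there numbered 30 and 41 on V and 16 and 28 on IV. These counts are not scaled to length, and the centre of V is longer than that of IV. As a share of stretches, those of at least 50 kb differed between V and IV by 1.06 percentage points (adjusted p = 0.054 by Fisher's exact test), which does not pass 0.05.

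**Figure D3:**
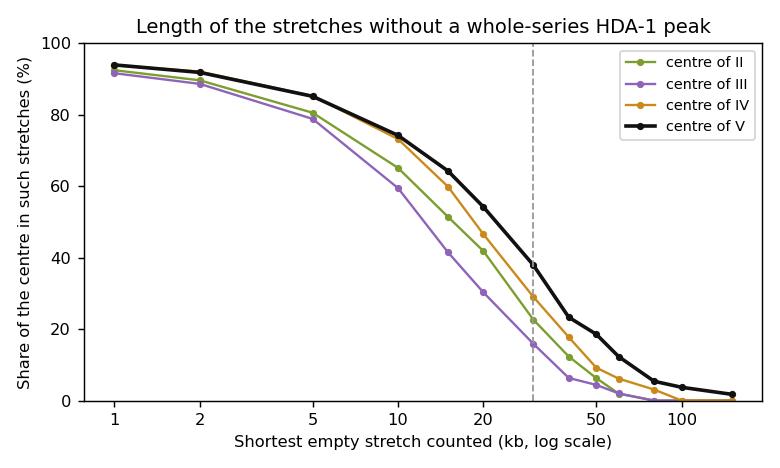
Share of each centre, in percent (vertical axis), that lies in stretches without a whole-series peak at least as long as the length on the horizontal axis (kb, log scale), with a dashed line at 30 kb. The V and IV lines run together up to 10 kb (74.2% and 73.2%) and V lies above IV from there, with 18.6% against 9.21% at 50 kb.

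Outside the stretches of at least 30 kb the density of V lay closer to those of II and III, but further from that of IV. There the whole-series density was 201 peaks per Mb on V, 204 on II, 210 on III and 177 on IV. The replicates gave 199 and 175 on V, 193 and 170 on II, 196 and 169 on III, and 175 and 156 on IV. The median distance from a peak to the next was 2235 bp on V, 1992 bp on II, 1986 bp on III and 2794 bp on IV. These are descriptions with no test. The removal of empty stretches raises each density by construction, and most in the centre with the largest share in such stretches.

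The long empty stretches divided the members into 84 groups. A group held 11 peaks at the median, from 1 to 56, with quartiles of 4.75 and 24.8 peaks. Median group length was 51.7 kb and the longest ran 287 kb. The centre of II had 41 groups with a median of 23 peaks, that of III 28 with a median of 32.5, and that of IV 59 with a median of 17. The centres differ in length, and groups per Mb numbered 8.03 on V, 5.37 on II, 4.06 on III and 6.75 on IV. The largest group held 125 peaks on II, 149 on III and 111 on IV, all more than the 56 on V.

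The 5 groups of V with the most peaks had 41 to 56 each. The largest ran from 8403230 to 8669050, with 56 whole-series peaks over 266 kb, 48 in replicate 1 and 30 in replicate 2. Of its 56 peaks, 23 were found in both replicates and 6 were at least 500 bp wide. It ended at the start of the 105 kb empty stretch.

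The group at 6425977 to 6666058 followed with 45 peaks (35 in replicate 1 and 28 in replicate 2). The group at 9930678 to 10055118 had 42 peaks (28 and 23) in 124 kb, the tightest of the 5 with a peak every 2.96 kb. The groups at 9503126 to 9790132 and 11000553 to 11239459 had 41 peaks each, with 36 and 37 in replicate 1 and 34 and 26 in replicate 2. The first of these was the longest group of the centre, with a peak every 7.00 kb.

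Groups of 30 or more peaks numbered 17 on V and held 636 members (48.8%) in 3.32 Mb. In the centres of II and III such groups held 77.5% and 88.1% of the peaks, and in that of IV 42.2%. At the other end, 11 groups of V held only 1 or 2 peaks each, 17 peaks in all, while II had 4 such groups, III 1 and IV 6. These counts are not scaled to length, and the centre of V is the longest of those compared. Groups were also cut at the bounds of each centre.

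Of the 5 lone peaks, 1 was found in both replicates, at 7142725 to 7142972 (score 13.13). The other 4 were found in replicate 1 alone, at 5233808 to 5233976, 9128600 to 9128804, 13962126 to 13962425 and 15262356 to 15262537. Their scores were 6.32, 11.21, 13.77 and 10.50. No lone peak rested on replicate 2 alone. The peak at 5233808 counts as lone only because groups end at the bounds. A whole-series peak outside the bound lay at 5226619 to 5226776, closer to it than 30 kb.

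The 6 groups of 2 peaks differed in support. Both members were found in both replicates at 11445269 to 11449926 and at 15296185 to 15322313, and 1 of 2 at 6926573 to 6930633 and at 15136828 to 15144214. Neither member was found in both at 7681474 to 7686387, inside the sparse tract, or at 12696883 to 12697889.

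**Figure D4:**
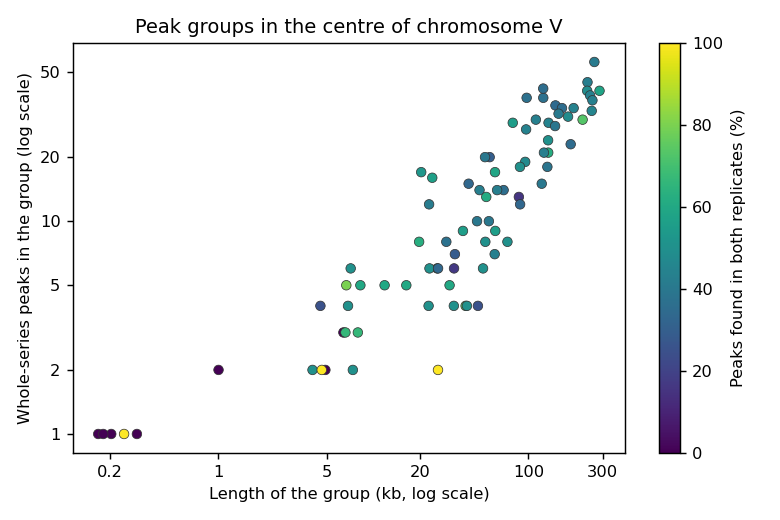
Whole-series peaks per group (vertical axis, log scale) against the length of the group in kb (horizontal axis, log scale) for the 84 groups of the V centre, coloured by the percent of the group's peaks found in both replicates. The 17 groups of 30 or more peaks lie at the upper right, and the 7 groups at 0% and the 3 groups at 100% hold 3 peaks or fewer each.

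Among the 44 groups of at least 10 peaks, the share found in both replicates ran from 15.4% to 73.3% with a median of 42.9%. The lowest was at 5636925 to 5723665, with 2 of 13 peaks (7 peaks in replicate 1 and 8 in replicate 2). The highest was at 5917696 to 6140987, with 22 of 30 (29 and 26). Both groups lie in the first 1 Mb of the centre, and these extremes were picked after the values were seen. The tightest group of this size was at 9075812 to 9096175, 17 peaks in 20.4 kb, a peak every 1.20 kb, set right after the 100.3 kb empty stretch.

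Groups of under 10 peaks, with the empty stretches around them, formed 20 sparse tracts that covered 35.3% of the centre of V and held 13.7% of its peaks. Such tracts covered 15.1% of the centre of II, 8.01% of that of III and 19.1% of that of IV. The longest on V ran from 14876502 to 15454362, 578 kb with 33 peaks in 8 groups (33 peaks in replicate 1 and 28 in replicate 2). The longest tract was 185 kb on II, 135 kb on III and 252 kb on IV. This grouping was defined after the values were seen.

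The densest windows of 20 kb on V held 18 whole-series peaks each, at 6221020 to 6241019 and at 13646062 to 13666061. The first had 17 peaks in replicate 1 and 10 in replicate 2, and the second 17 and 7. The next 3, with 17 peaks each, lay at 10464576 to 10484575, 10708462 to 10728461 and 12525667 to 12545666. In replicate 1 they held 16, 17 and 14 peaks, and in replicate 2 they held 3, 12 and 10. The window at 10464576 thus rested mostly on replicate 1, with 3 of its peaks found in both. The densest window held 26 peaks on II, 18 on III and 20 on IV.

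HDA-1 peaks of the centre of V were narrow, and no difference in width from the other centres passed a test. The median width was 268 bp in the whole-series list (quartiles 190 and 413 bp), 270 bp in replicate 1 and 229 bp in replicate 2. The medians on II, III and IV were 258, 268.5 and 275 bp in the whole-series list. The narrowest peak was 146 bp in every list, and 28.1% of the members were under 200 bp.

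Peaks of at least 500 bp made up 240 of the 1304 members (18.4%), against 14.9% of all whole-series peaks. In the centres of II, III and IV the shares were 17.2%, 16.9% and 19.0%. No difference from V passed Fisher's exact test, with odds ratios of 1.08 (interval 0.88 to 1.34), 1.11 (0.90 to 1.37) and 0.96 (0.78 to 1.19) and adjusted p-values of 0.70, 0.70 and 0.75. Unadjusted, the exact test gave a lowest p of 0.35. In the replicates the share on V was 17.3% and 10.4%, and the narrower peaks of replicate 2 were found at every centre.

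The widest member lay at 14741555 to 14745192, 3638 bp, with a score of only 3.30. Replicate 2 held 3 peaks there that together spanned 3312 bp (best score 14.62), and replicate 1 held 2 that spanned 730 bp (best score 8.75). It was thus broad in replicate 2 and short in replicate 1.

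The next 4 were broad in replicate 1. They lay at 9342067 to 9344804 (2738 bp), 6227053 to 6229616 (2564 bp), 10721720 to 10723996 (2277 bp) and 9338860 to 9340674 (1815 bp). Replicate 1 had 1 peak at each, of 2850, 2873, 2366 and 1878 bp. Replicate 2 had 4 peaks of 1201 bp in all at the first and 4 of 1744 bp at the second, then single peaks of 439 and 1579 bp. The first and the last of these 4 lie in 1 group of 12 peaks. Thus 2 of the 4 were whole in replicate 1 and in 4 pieces in replicate 2.

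Over all members found in a replicate, 30 overlapped 2 or more peaks of replicate 1 (2.95%) and 68 overlapped 2 or more of replicate 2 (9.25%). For the 582 members found in both, the widths of all overlapping peaks of a replicate were summed. The sum was larger in replicate 1 for 431 (74.1%), with medians of 384 and 274 bp. A replicate peak that overlapped more than 1 member was counted for each.

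Fewer than 50% of the members were found in both replicates. Of the 1304, 582 (44.6%, 95% exact interval 41.9 to 47.4%) overlapped a peak of each replicate by at least 1 bp, against 41.9% of all whole-series peaks. Another 434 (33.3%) were found in replicate 1 alone and 153 (11.7%) in replicate 2 alone, and 135 (10.4%) matched no replicate peak. Over the whole list these shares were 28.9%, 18% and 11.2%, with no test made.

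The share found in both was 45.6% in the centre of II, 49.3% in that of III and 46.0% in that of IV. The difference, V minus the other, was -0.94, -4.63 and -1.42 percentage points. Fisher's exact test gave odds ratios of 0.96 (interval 0.82 to 1.13), 0.83 (0.71 to 0.97) and 0.94 (0.80 to 1.11), with adjusted p-values of 0.66, 0.062 and 0.66. None passed 0.05 after adjustment, although the exact test against III gave p = 0.0206 before it. Requiring an overlap of 50% of the shorter peak, or taking as centre the third of each chromosome in the middle, brought the difference from III past the threshold (adjusted p = 0.032 and 0.016, exact test). With midpoints within 100 bp it was -4.45 points and did not pass (adjusted p = 0.062, exact test). In the better-scoring 50% it was -3.10 points and did not pass either (adjusted p = 0.82, exact test).

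Each replicate was also compared with the other directly. In the centre of V, 598 peaks of replicate 1 (51.6%, interval 48.7 to 54.5%) were found again in replicate 2, and the share was 51.5% over the whole list. Conversely, 649 peaks of replicate 2 (75.9%, interval 72.9 to 78.7%) were found again in replicate 1, and the share was 65.2% over the whole list. The replicate 2 shares in the centres of II, III and IV were 76.1%, 80.1% and 75.9%. All 4 centres thus lay above the list as a whole for replicate 2.

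Score and width separated the members found in both replicates from the rest. In the 25% with the highest scores 309 of 326 were found in both (94.8%), and in the lowest 25%, 12 of 326 were (3.68%). The classes between had 57.5% and 21.7%. Of the lowest class, 50.6% were found in replicate 1 only, 16.0% in replicate 2 only and 29.8% in neither. The members found in both scored 19.82 at the median and were 396 bp wide at the median. For those found in neither the medians were 4.25 and 171 bp.

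By width, 7.36% of the 367 members under 200 bp were found in both, 49.2% of the 697 from 200 to under 500 bp, 85.7% of the 168 from 500 to under 800 bp, and 94.4% of the 72 of at least 800 bp. The 4 of the last class that were not found in both overlapped replicate 2 alone. They lay at 8826099 to 8826952, 8868160 to 8869024, 14104961 to 14106241 and 14240187 to 14241077, and are named here after their values were seen. The replicate lists and the whole-series list are not independent, so these shares describe how the lists fit together.

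**Figure D5:**
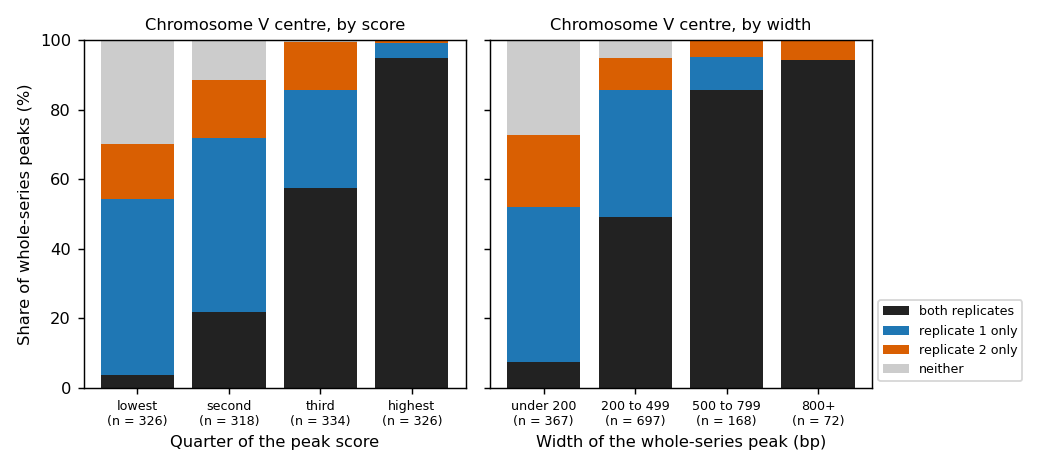
Share of the V centre members, in percent (vertical axis), found in both replicates, in 1 or in neither, by score in 4 classes (left) and by width in bp (right), with the number of members under each bar. The share found in both climbs from 3.68% to 94.8% over the score classes and from 7.36% to 94.4% over the width classes.

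Replicate support is given next by crowding. Of members with another peak within 1 kb 45.6% were found in both replicates (318 of 698), and of those with the nearest at 1 to 10 kb 44.6% were (228 of 511). Of the 95 members at least 10 kb from any other member, 37.9% were found in both (interval 28.1 to 48.4%). Their median width was 214 bp, against 279 bp in the most crowded class. Peaks outside the bounds were not counted as neighbours. Groups of 30 or more peaks had 43.9% found in both, groups of 10 to 29 had 44.2% and groups of 3 to 9 had 49.4%. These intervals overlap, and no test was made.

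Among neighbouring members, 36.1% stood less than 1 kb apart. The share was 34.5% in replicate 1 and 29.2% in replicate 2. In the whole-series list it was 38.1% on II, 38.5% on III and 35.4% on IV.

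The members with the best scores were found in both replicates. The 100 best were all found in both, and the first that was not ranked 158 among the members. The whole-series and replicate lists are not independent, so this describes how the lists fit together. The 10 best found in both had scores from 62.95 to 87.72 and widths from 392 to 1076 bp, and 8 of the 10 were at least 500 bp wide. The best lay at 15589934 to 15590567, 634 bp, and shared the highest score of the whole list with 5 other peaks of the genome (6 in all). It scored 122.46 in replicate 1 (rank 12 of that list) and 81.42 in replicate 2 (rank 35).

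A pair of strong sites stood 1494 bp apart in 1 small group of 5 peaks, at 10136681 to 10137130 (score 79.86) and 10138625 to 10139016 (score 71.43). They ranked 28 and 80 in replicate 2, and 316 and 957 in replicate 1. Both sites were nearer the top in replicate 2.

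The sites at 11123455 to 11124464, 11644084 to 11644890, 7775982 to 7776491 and 10894443 to 10895258 leaned the other way. They ranked 56, 35, 99 and 57 in replicate 1, and 224, 1162, 386 and 1000 in replicate 2. The remaining 3 lay at 9164318 to 9165061 (ranks 2533 and 107), 14500445 to 14501520 (226 and 198) and 6879400 to 6880134 (438 and 172). Over the 10, 5 ranked better in replicate 1 and 5 in replicate 2, so these sites were in both lists but in another order. Across the 582 members found in both, the replicate scores had a Spearman rho of 0.55 as a description. Neighbouring peaks are not independent, and lists of 11762 and 9901 peaks give ranks on different scales.

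The best-scoring members not found in both came mostly from replicate 1. They lay at 14524277 to 14524499 (score 30.31), 10319994 to 10320606 (28.56), 11239253 to 11239459 (25) and 10003383 to 10003619 (24.64), all found in replicate 1 alone. The exception lay at 13646062 to 13646299 (25.74), found in replicate 2 alone, at the left edge of 1 of the 2 densest windows. Their scores in the replicate that held them were 44.02, 43.24, 35.69, 37.37 and 33.55 in the same order with the exception last. Among all members, 434 were found in replicate 1 alone and 153 in replicate 2 alone. The named peaks thus leaned the same way as the members at large, and no test compared them.

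The scores of the members are set beside the list they came from. Of the 1304, 26.8% reached the score that marks the best 25% of all whole-series peaks, 51.1% the score that marks the best 50%, and 10.7% the score that marks the best 10%. The median score was 9.40 on V, 9.50 on II, 10.49 on III and 9.95 on IV.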

How the data were processed

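HDA-1 ChIP-seq was deposited as peak lists, 1 for each of 2 ChIP replicates and 1 for the whole series. Per the submitters' processing notes, BWA and ce10 were used. Per the file headers, peaks were called with MACS on WS220 coordinates. For the MACS version, threshold, control library and the making of the whole-series list, the sources used here say nothing. The deposited score has no stated unit, and a stricter or deeper list would change every count.

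Chromosome spans were the largest peak end over the 3 lists, and each centre was the middle 50% of its span. An overlap of 1 bp or more counted as shared. A long empty stretch held no base of a peak of the centre for at least 30 kb, and groups are the peaks between such stretches. Peaks outside the bounds were left out of stretches, groups and distances to the nearest peak. A peak of at least 500 bp was called wide. Density was compared by exact binomial tests and shares by Fisher's exact test, with V against II, III and IV, adjusted by Benjamini-Hochberg over 3 comparisons per family at 0.05. The code was tested on simulated data.

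Named places followed a rule: the 10 best-scoring peaks found in both replicates, the 5 widest, the 5 best not found in both, the 5 longest empty stretches, the 5 largest groups, groups of 1 or 2, the 5 densest windows of 20 kb and the extreme bins of 1 Mb. Members and lists were chosen with earlier results of these data known. The test of the share of long stretches, the sparse tracts and the classes by crowding and group size were added after the data were examined. Gene positions were from another build (WBcel235) than the peaks, so no gene and no sequence is given. The code ran in Python 3.11.15 with SciPy 1.17.1 for tests, pandas 2.3.3 and NumPy 2.4.6 for tables, and matplotlib 3.10.9 for plots.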

Additional observations from a re-analysis of the deposited data

How the results depend on the processing

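Alternatives gave 86 values. The call or value held in 65, and the value shifted beyond its limit in 15. A test newly passed in 2 and the direction turned in 4. The limit was the interval for shares found in the replicates and 1.5 times for the number of groups. For median width, share in long stretches and share of gaps under 1 kb, it was the standard deviation of the 2 replicate values. V stayed sparser than II and III in each replicate, in the better-scoring 50%, after peaks closer than 1 kb were merged and in a narrower centre (the third of each chromosome in the middle), and the tests of long stretches against II and III passed under all 7 alternatives tried. In the narrower centre, V against IV turned to a log2 density ratio of 0.12 and a long-stretch difference of -0.53 points, and the difference V minus III in the share found in both was -6.81 points (passing). In the reported centre, an overlap of 50% of the shorter peak gave -5.09 points for that difference (passing), against -4.63 as reported. That difference did not pass with midpoints within 100 bp (-4.45 points) or in the better-scoring 50% (-3.10 points). The share of wide peaks against IV ran from -0.74 to 1.26 points over the replicates and was 1.43 points at 800 bp. With midpoints within 100 bp, 31.9% of members were found in both, 37.3% of replicate 1 peaks in replicate 2 and 50.5% of replicate 2 peaks in replicate 1. The better-scoring 50% gave a median width of 368 bp, 59.9% of the centre in long stretches and 19.1% of gaps under 1 kb, with fewer peaks by construction. With 1 replicate left out, the median width was 229 to 270 bp, the share in long stretches 44.4% to 53.2% and the share of gaps under 1 kb 29.2% to 34.5%. Long stretches of at least 20 kb took up 54.2% of the centre and made 155 groups, those of at least 50 kb took up 18.6% and made 29, and stretches empty in all 3 lists took up 31.6%. Other causes were not tested. No paired analysis was possible because the results rest on peak lists of 1 group, and the inputs numbered like the ChIP samples were not analysed here.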

Other observations

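The replicate lists held some peaks of the centre of V that the whole-series list lacked. There were 143 in replicate 1 (12.3% of 1159), which scored 4.0 at the median and were 174 bp wide at the median, and 43 in replicate 2 (5.03% of 855), for which these medians were 4.65 and 156 bp. None of them overlapped a peak of the other replicate, and the same held in the centres of II, III and IV. The shares absent from the whole-series list there were 12.9%, 13.4% and 12.3% for replicate 1 and 5.66%, 3.47% and 3.23% for replicate 2.

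The balance of the replicates varied between bins of the centre of V, with the extremes picked after the values were seen. In bins of 1 Mb the ratio of replicate 1 to replicate 2 peaks ran from 1.14 at 14000001 to 15000000 (115 against 101 peaks) to 1.66 at 13000001 to 14000000 (118 against 71). These bins are neighbours. Among these bins the share of members found in both replicates ran from 38.5% to 54.2%, and the median width from 244.5 to 303 bp. No test was made, so this spread is not told apart from counting error, and the cause was not tested.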
